A study of Homo sapiens with 12 samples.

Results

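The BCL2 family decides in many cells whether the mitochondrial route of apoptosis is taken, and 10 of its genes were followed here in RNA held by Argonaute 2 (AGO2). The members were BCL2, BCL2L1 (BCL-xL), MCL1, BAX, BAK1, BCL2L11 (BIM), BID, BAD, BBC3 (PUMA) and PMAIP1 (NOXA). They were chosen by name, and a row counted as a member when 1 of the gene names it carries equals 1 of these symbols. This gave 10 rows of the 61782 in each deposited table. For 9 members the row holds that gene alone, whereas the MCL1 row was joined by the authors' software with ADAMTSL4-AS1, so that its values belong to both genes.

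RNA was immunoprecipitated from K562, a human erythroleukemia cell line that carries BCR-ABL1, either with an antibody to AGO2 (AGO) or, as a mock, with immunoglobulin of no specificity (IgG). Per the study's methods the line was K562-C/EBPα-ER, which carries an inducible C/EBPα fusion, and the cells stably overexpressed miR-143 from the vector pLV-miR-143 or carried pLV-control. The labels put 3 samples in each of control_AGO, control_IgG, miR143_AGO and miR143_IgG, 12 in all. Per the same methods all cells were grown in puromycin, after selection with puromycin or sorting, and no induction of C/EBPα is named for these samples. Each group is deposited as 1 average FPKM (fragments per kilobase, corrected for the size of the library) per row. There is thus no replicate spread for any difference given here, and no test was made.

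Proteins of this family share short BCL2 homology (BH) motifs. Guardians such as BCL2, BCL-xL and MCL1 keep cells alive by holding their pro-apoptotic relatives, the effectors BAX and BAK1 form the pores in the outer mitochondrial membrane, and BH3-only proteins such as BIM, BID, BAD, PUMA and NOXA sense damage and set the effectors free. Many of these genes are known targets of miRNAs, among them BCL2 (miR-15/16), MCL1 (miR-29) and BCL2L11 (the miR-17-92 cluster). A miRNA in AGO2 finds its targets chiefly through its seed, bases 2 to 8, which pairs with the 3′ UTR.

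The vector was visible in the data. The MIR143 row was at 0 FPKM with the control vector in either precipitate. With pLV-miR-143 it held 44781 FPKM in the IgG and 118393 FPKM in the AGO precipitate, and in the latter it took 28.8% of the summed FPKM. Since FPKM is per kilobase, this is not a share of the fragments. GAPDH, which the study used as a control, ranged from 467 to 584 FPKM. The 8 erythroid genes checked as markers of K562 lie in 7 rows, and 6 of these reached 1 FPKM in control_IgG and 7 in every other group. The T cell marker CD3E and the liver marker ALB were at 0 FPKM throughout. Depth is unknown, since no fragment counts are given. The low edge of a group, its 10th smallest product of FPKM and transcript length, exceeded that of miR143_AGO by a factor of 12.9 in control_IgG, 1.64 in miR143_IgG and 1.09 in control_AGO, so that low values in control_IgG rest on the fewest fragments. In precipitates of whole cultures, a lower level of the mRNA per cell and a lower share of it in AGO2 cannot be told apart, nor can fewer cells that express it.

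The miRNA that was overexpressed and its seed matches in the family are shown first. Only seed matches in 3′ UTRs were searched, and pairing of other kinds or elsewhere in the RNA was not looked for. Mature sequences are from RefSeq (GRCh38.p14), and the seed is in capitals.
miR-143-3p: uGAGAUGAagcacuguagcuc
Its 8mer match reads TCATCTCA, its 7mer-m8 match TCATCTC and its 7mer-A1 match CATCTCA. They were searched on the transcript strand only, and a 7mer inside an 8mer was counted once, as the 8mer. In the longest annotated 3′ UTR (GENCODE 29, GRCh38), 4 of the 10 members held a match, against 24.6% of 6848 coding genes that reached 1 FPKM in an AGO group. These genes have rows of 1 name. BCL2 and PMAIP1, under 1 FPKM in both AGO groups, and MCL1, in a joined row, are not among them, so that the 2 sets are not alike. Capitals mark the match, and each stretch is in transcript orientation.
BAX, 8mer, chr19:48961411-48961418 (+): ttaatgcccgtTCATCTCAgtcccctgccc
MCL1, 7mer-A1, chr1:150575251-150575257 (−): ccctgcctgccCATCTCAgagccataagg
BBC3, 7mer-A1, chr19:47221486-47221492 (−): ccgcccaccacCATCTCAggaaaggctgt
BCL2, 7mer-A1, chr18:63126800-63126806 (−): aaaaatacatgCATCTCAgcgtttttttg
BCL2, 7mer-A1, chr18:63124098-63124104 (−): catgaaatatgCATCTCActggatgcaaa
All 5 matches lie in the 3′ UTR of the longest transcript, but not in each isoform. The only 8mer, in BAX, is in 1 of the 4 coding transcripts of that gene with a 3′ UTR (BAX-201). An 8mer for miR-143-3p was held by 5.17% of the 6848 genes. The MCL1 match is in 2 of 3 transcripts, each BCL2 match in 1 of 3, and the BBC3 match in 4 of 4. BCL2L1, BAK1, BCL2L11, BID, BAD and PMAIP1 held none of these letters in that UTR.

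Matches for 10 other miRNA families were searched in all members. The members with the highest AGO over IgG ratios, BAK1 and BCL2L11, held no match for miR-143-3p, and their 8mers for the other families are printed here. BCL2, BCL2L1, MCL1 and BBC3 also hold 8mers for some of these families. BCL2L11 has a 3′ UTR of 4480 bases, longer than that of 90.3% of the genes, with 6 such 8mers of 5 families, which are given with the seeds that pair with them.
miR-17-5p: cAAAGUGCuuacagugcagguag
BCL2L11, chr2:111166230-111166237 (+): tcctgactagaGCACTTTActctgtttcct
miR-92a-3p: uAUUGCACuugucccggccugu
BCL2L11, chr2:111168365-111168372 (+): ccactttacttGTGCAATActgctgtaaat
miR-24-3p: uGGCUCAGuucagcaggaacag
BCL2L11, chr2:111164673-111164680 (+): tgcagtggaaaCTGAGCCAgctaacttaaa
BCL2L11, chr2:111166909-111166916 (+): ttacttatcaaCTGAGCCAaatgtctgtgt
miR-181a-5p: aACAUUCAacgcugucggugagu
BCL2L11, chr2:111164439-111164446 (+): gaagtttgttgTGAATGTAaaggagggagc
miR-221-3p: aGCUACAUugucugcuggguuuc
BCL2L11, chr2:111168283-111168290 (+): ggacccagcgtATGTAGCAtttgtattgca
BAK1 has a 3′ UTR of 1450 bases, and its only 8mer is for miR-29-3p, which MCL1 also holds.
miR-29a-3p: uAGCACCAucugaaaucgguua
BAK1, chr6:33573608-33573615 (−): tcaacattgcaTGGTGCTAgtgggccctct
MCL1, chr1:150576039-150576046 (−): tagtctaaccaTGGTGCTAttattaggctt
Each of the BCL2L11 8mers is in 8 or 9 of its 12 coding transcripts with a 3′ UTR. The BAK1 8mer is in 3 of 3, and the MCL1 8mer for miR-29-3p in 2 of 3. A match is a description of the sequence and no evidence of binding, and the levels of these miRNAs were not analysed here.

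Over all 11 families the 3′ UTRs of the members differed widely in matches. BCL2 held 13 (8mers and 7mers together) in 5279 bases and BCL2L11 held 11, whereas BCL2L1 and BAD held 1 each. The single match of BCL2L1 is an 8mer for let-7. Per kilobase the order was another, with BBC3 highest at 6.13 matches, BAX at 4.28 and BCL2L1 lowest at 0.668, beside a median of 1.73 over the 6848 genes. By family, matches for miR-17, miR-25/92 and miR-24 were each found in 5 of 10 members, where 31.4%, 20.1% and 33.8% of the 6848 genes held one. Matches for miR-143-3p, miR-29 and miR-181 were found in 4 members each (24.6%, 20.3% and 26.1% of genes) and those for miR-34 and miR-221 in 3 (24.0% and 16.6%). Those for let-7, miR-15/16 and miR-19 were found in 2 (18.2%, 29.9% and 22.0%). In the shortest annotated 3′ UTR the members with a match were 0 for miR-17, 2 for miR-25/92 and 3 for miR-24 (14.0%, 8.44% and 15.2% of genes).

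**Figure D1:**
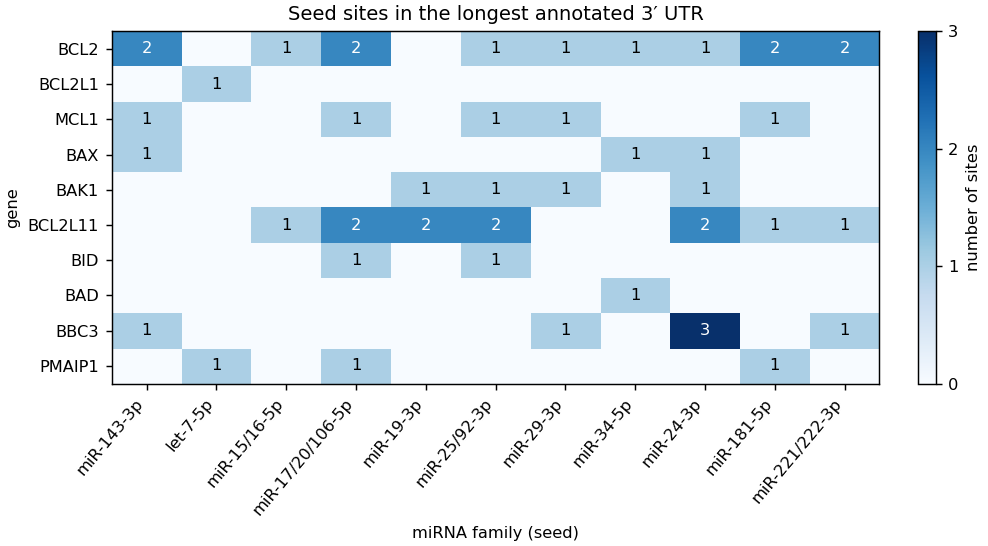
Number of seed matches (8mer, 7mer-m8 and 7mer-A1 together) in the longest annotated 3′ UTR of each of the 10 members, for 11 miRNA families. BCL2 with 13 and BCL2L11 with 11 stand above the other members, and the miR-143-3p matches lie in BCL2, MCL1, BAX and BBC3.

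The guardians differed in level by more than an order of magnitude. BCL2L1 (chr20:31664452-31723989, minus strand), whose product BCL-xL is a main survival protein of erythroid cells, was at 26.5 FPKM in control_IgG against 25.3 in control_AGO, and 34.3 in miR143_IgG against 30.9 in miR143_AGO. Its 4 values lay close together. Its exons overlap those of the antisense gene ABALON over 1424 bases, and ABALON was at 4.02 to 15.0 FPKM; the part of its reads in the BCL2L1 values was not tested. MCL1 (chr1:150574551-150579738, minus strand), a short-lived guardian, was at 10.6 FPKM in control_IgG against 27.8 in control_AGO, and 17.3 in miR143_IgG against 14.3 in miR143_AGO, in the row it shares with ADAMTSL4-AS1. Control_AGO was thus the highest of its 4 values. BCL2 (chr18:63123346-63320128, minus strand), which gave the family its name, was at 0.469 FPKM in control_IgG against 0.952 in control_AGO, and 0.165 in miR143_IgG against 0.202 in miR143_AGO. It stayed under 1 FPKM in all groups, so it was not compared further. The plain ratio of its AGO values was 4.72-fold lower with miR-143, with both values under 1 FPKM.

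Of the pore-forming effectors, BAX (chr19:48954815-48961798, plus strand) was at 117 FPKM in control_IgG against 19.5 in control_AGO, and 12.4 in miR143_IgG against 26.2 in miR143_AGO. A single group, control_IgG, stood far above the others. BAK1 (chr6:33572547-33580293, minus strand) was at 3.72 FPKM in control_IgG against 55.3 in control_AGO, and 6.98 in miR143_IgG against 39.6 in miR143_AGO. Both of its AGO values lay above both IgG values, and it was the 2nd highest member in each AGO group and the 7th in each IgG group.

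Of the BH3-only genes, BID (chr22:17734138-17774770, minus strand), whose product links death receptors to mitochondria once caspases have cut it, was the highest member in each group. It was at 149 FPKM in control_IgG against 65.1 in control_AGO, and 91.5 in miR143_IgG against 99.5 in miR143_AGO. BCL2L11 (chr2:111119378-111168447, plus strand), whose product BIM binds all guardians, was at 0.690 FPKM in control_IgG against 16.8 in control_AGO, and 5.81 in miR143_IgG against 16.01 in miR143_AGO. Its AGO values were nearly equal, and both were above both IgG values. BAD (chr11:64269830-64284704, minus strand), a BH3-only protein silenced by survival kinases, was at 3.95 FPKM in control_IgG against 1.45 in control_AGO, and 33.3 in miR143_IgG against 0.878 in miR143_AGO. Here miR143_IgG stood apart.

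The p53 targets BBC3 and PMAIP1 completed the group. BBC3 (chr19:47220822-47232766, minus strand) was at 6.78 FPKM in control_IgG against 6.66 in control_AGO, and 13.1 in miR143_IgG against 8.91 in miR143_AGO. PMAIP1 (chr18:59899948-59904306, plus strand) was listed at 0 in 3 groups and at 0.832 FPKM in miR143_AGO. Like BCL2 it reached 1 FPKM in no group, which left 8 members for every comparison.

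**Figure D2:**
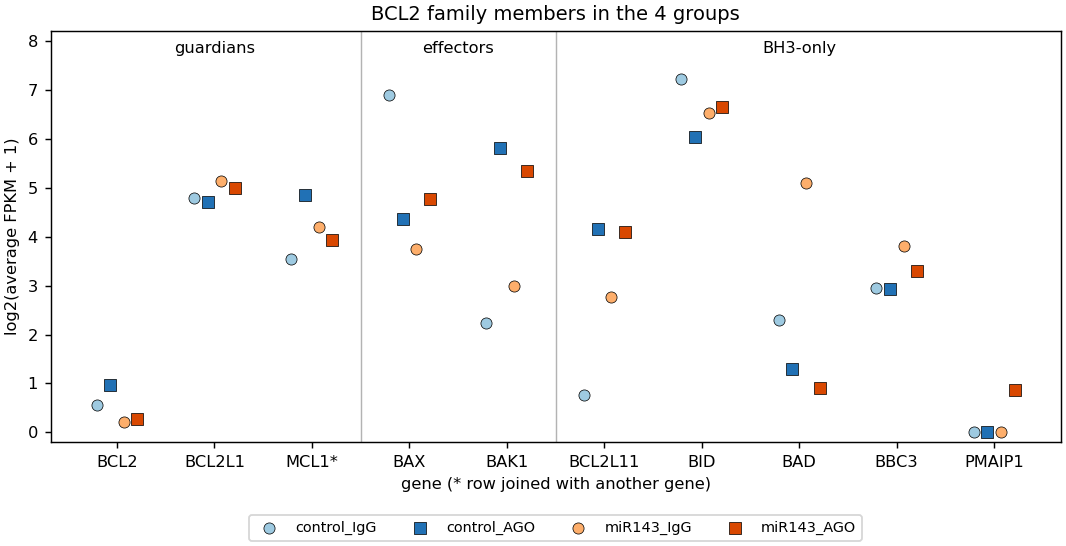
Level of the 10 members in the 4 groups, as log2(average FPKM + 1) with 1 point per group (circles IgG, squares AGO, blue control, orange miR-143). BID is highest in each group, the AGO points of BAK1 and BCL2L11 lie above their IgG points, BAX is highest in control_IgG and BAD in miR143_IgG.

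To find which members were held by AGO2, AGO was compared with IgG in each cell population, as log2 of (FPKM + 1) over (FPKM + 1). In control cells 3 of 8 members were at least 2-fold higher in AGO and 3 at least 2-fold lower, where 70.7% of 9919 rows passed 2-fold in either direction, 34.5% upward and 36.2% downward. The count is therefore near the background, and the median log2 ratio was −0.04 over the members and −0.19 over all rows. At the study's threshold of 10-fold, which 9.36% of rows passed in either direction and 4.38% upward, BAK1 and BCL2L11 were higher. BAK1 had a log2 ratio of 3.58 and BCL2L11 of 3.39, and 3.39% and 4.02% of rows reached at least these ratios. Without the added 1 these were 14.9-fold and 24.3-fold. The denominators were low: the control_IgG value of BCL2L11 was 5.12 times the low edge of that group with its longest coding transcript and 0.238 times with its shortest, so that it may rest on hardly any fragments. That of BAK1 was 11.7 and 11.2 times the edge. MCL1 had a log2 ratio of 1.31. BAX at −2.53, BID at −1.18 and BAD at −1.01 were lower in AGO, and the last 2 stayed under 2-fold when the groups were scaled to a common median, upper quartile or coding sum.

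In miR-143 cells 3 of 8 members were at least 2-fold higher in AGO and 1 at least 2-fold lower, where 60.1% of 10643 rows passed 2-fold, 26.6% upward and 33.5% downward. At 10-fold, passed by 5.27% of rows, 1 member was lower. The median log2 ratio was −0.01 over the members and −0.22 over all rows. BAK1 was again high, with a log2 ratio of 2.35, which 5.95% of rows reached. BCL2L11 had 1.32, a ratio reached by 19.7% of rows. BAX had 1.02 and so lay on the other side of zero than in control cells. BAD had −4.19, past 10-fold, where 3.67% of rows were at least 10-fold lower and 1.34% were as low. It reached 1 FPKM here only in miR143_IgG. Its miR143_AGO value of 0.878 FPKM was 18.6 times the low edge with its longest coding transcript and 8.44 times with its shortest. The ratio of BAD became −5.09 and −5.23 with an added 0.1 and 0.01. BAK1 and BCL2L11 were thus at least 2-fold higher in AGO in both populations. These were 2 of 8 members, where 15% of 8648 rows compared in both were, and with so few members the shares cannot be set apart. The control and miR-143 precipitates are separate samples, but each ratio rests on 1 average over another. BAK1P1, a processed copy of BAK1, was at 0 FPKM in both IgG groups, at 0.926 in control_AGO and at 8.82 in miR143_AGO, and reads shared between the copy and BAK1 cannot be assigned with certainty.

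**Figure D3:**
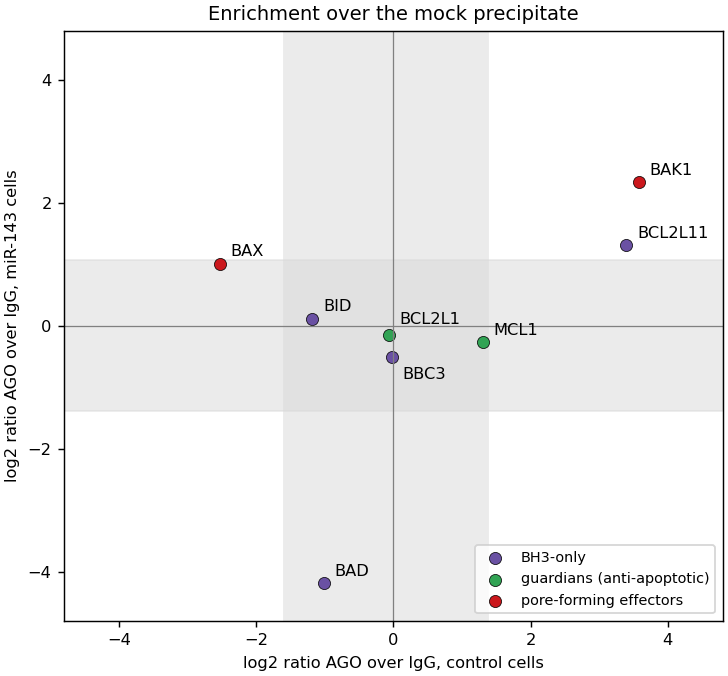
Log2 ratio of AGO over IgG for the 8 members compared, in control cells (horizontal axis) against miR-143 cells (vertical axis), coloured by role, with the middle 50% of all rows shaded. BAK1 (3.58 and 2.35) and BCL2L11 (3.39 and 1.32) are above zero on both axes, BAX is at −2.53 and 1.02, and BAD is lowest on the vertical axis at −4.19.

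To find which members differed between the AGO precipitates, miR143_AGO was compared with control_AGO. None of the 8 members differed by 2-fold in either direction, where 31.8% of 9798 rows did (17.7% higher and 14.1% lower) and 1.03% passed 10-fold. The median log2 ratio of the members was 0.11, beside 0.17 over all rows, which had an SD of 1.12. MCL1 had the lowest ratio of the members, −0.91 (1.95-fold lower), and 15.5% of rows were as low. It reached −1.03 when the groups were scaled to a common median. BID had the highest, 0.60 (1.53-fold higher). BAX, the only member with an 8mer for miR-143-3p, had a log2 ratio of 0.40, and 40.1% of rows reached that. BBC3, with a 7mer-A1, had 0.37. Of the members without a match, BCL2L1 had 0.28, BCL2L11 −0.06 (0.10 at a common upper quartile), BAD −0.38 and BAK1 −0.47. The 3 compared members with a match, MCL1, BAX and BBC3, lay on both sides of zero. BCL2, which also held matches, stayed under 1 FPKM and was not compared. Whether a match goes with a ratio was not tested.

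Ratios between the mock precipitates were spread more widely than those between the AGO precipitates. The mock groups also differed more in low edge, at 12.9 times that of miR143_AGO in control_IgG and 1.64 times in miR143_IgG. That of control_AGO was 1.09 times, and the part of this difference in the spread was not tested. Between miR143_IgG and control_IgG, 63% of 10172 rows differed by at least 2-fold (36.2% higher and 26.8% lower) and 8.87% by at least 10-fold. Of the 8 members, 2 were at least 2-fold higher with miR-143 and 1 at least 2-fold lower, and their median log2 ratio was 0.70, beside 0.17 over all rows. BAX had a log2 ratio of −3.14 (9.46-fold lower), and 3.89% of rows were as low. Its control_IgG value was 226 times the low edge of that group with the longest coding transcript and 72.2 times with the shortest. BAD had 2.79 (8.44-fold higher) and BCL2L11 2.01 (8.42-fold higher), ratios reached by 9.23% and 17.2% of rows. The BCL2L11 ratio rests on 0.690 FPKM in control_IgG, became 2.90 and 3.06 with an added 0.1 and 0.01, and was not compared where a mean of at least 5 FPKM was asked. BAD overlaps the gene GPR137 on the opposite strand over 404 exonic bases, and GPR137 was at 5.46 to 8.35 FPKM, with no group standing apart. BCL2L11 overlaps the long noncoding MIR4435-2HG on the opposite strand over 727 bases, which was at 13.4 FPKM in control_IgG and 14.2 in miR143_IgG. The part of these overlapping genes in the values was not tested.

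**Figure D4:**
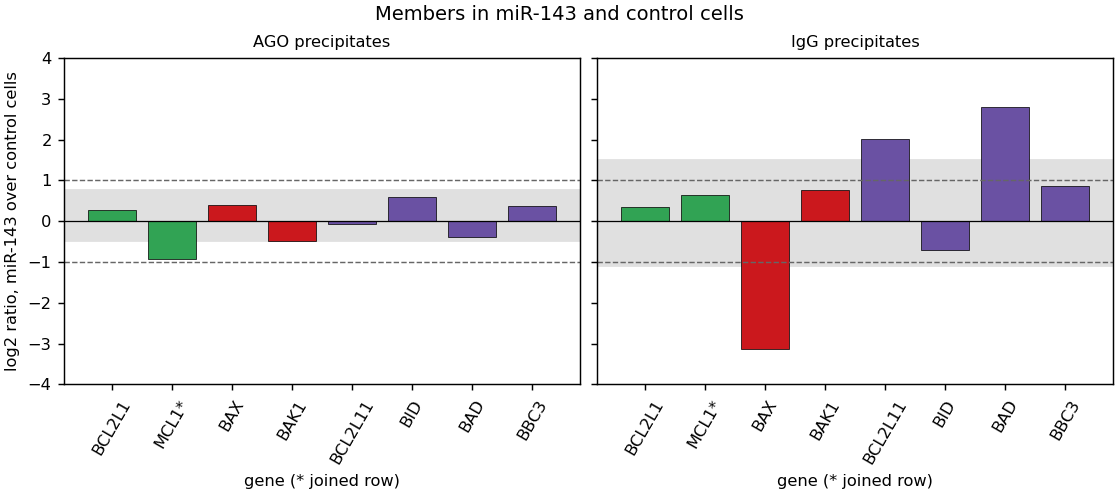
Log2 ratio of miR-143 over control cells for the 8 members compared, in AGO (left) and IgG (right) precipitates, with guardians in green, effectors in red and BH3-only genes in purple. Dashed lines mark 2-fold, and the shaded band holds the middle 50% of all rows. In AGO all members lie between −0.91 and 0.60, whereas in IgG they reach from −3.14 (BAX) to 2.79 (BAD).

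When the AGO over IgG ratio of miR-143 cells was divided by that of control cells (the IgG-corrected ratio), 2 of 8 members were at least 2-fold higher and 4 at least 2-fold lower. Of 11914 rows 62.5% passed 2-fold, 29% upward and 33.5% downward, and 10.3% passed 10-fold. The median log2 ratio was −0.86 over the members and −0.09 over all rows. BAX had the highest corrected log2 ratio of the members, 3.55, where 4.29% of rows were at least 10-fold higher and 3.34% reached its value. BAD had −3.18, BCL2L11 −2.07, MCL1 −1.56 and BAK1 −1.23. BID had 1.30, and 0.96, under 2-fold, when the groups were scaled to a common median. For BAX, BAD and BCL2L11 these values stem from the IgG pair, since their AGO ratios were 0.40, −0.38 and −0.06. For MCL1 both pairs entered, with −0.91 in AGO and 0.65 in IgG. BCL2L1 at −0.08 and BBC3 at −0.48 stayed within 2-fold in all 5 comparisons, except that BBC3 reached 1.05 in the IgG pair when the groups were scaled to a common median. The 5 comparisons share their 4 group averages and are not independent of each other.

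Other genes of the apoptosis machinery, from fixed lists, were compared the same way. In the AGO pair, at least 2-fold higher or lower were 1 and 0 of 5 further BCL2 family genes, 2 and 2 of 12 genes of the apoptosome and the caspases, 1 and 1 of 5 caspase inhibitors and 0 and 0 of 6 death receptor genes. In AGO over IgG of control cells the same lists gave 2 and 0 of 5, 5 and 4 of 10, 2 and 0 of 5, and 3 and 1 of 5, and in miR-143 cells 1 and 2 of 6, 3 and 2 of 12, 1 and 1 of 5, and 1 and 1 of 6. With lists this short the shares cannot be set apart from the background of all rows. BCL2L12, an atypical family member, was the highest of the further family genes at 208 FPKM in control_IgG against 640 in control_AGO, and 74.1 in miR143_IgG against 699 in miR143_AGO. Its AGO over IgG log2 ratios of 1.62 and 3.22 were both above zero, as for BAK1 and BCL2L11. BCL2L2 (BCL-w), in a row joined with PABPN1, was lowest in miR143_AGO at 11.2 FPKM and highest in miR143_IgG at 38.3.

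Among genes downstream of the mitochondria, CYCS, the cytochrome c that is released through the pores, was at 94.1 FPKM in control_IgG against 23.6 in control_AGO, and 63.7 in miR143_IgG against 79.4 in miR143_AGO. CASP2, an initiator caspase, was at 2.84, 73.9, 34.1 and 50.6 FPKM in this order, so that its AGO over IgG log2 ratio was 4.29 with the control vector and 0.56 with pLV-miR-143. These ratios were reached by 1.87% and 35.1% of rows. The control_IgG value of CASP2 was 17.0 times the low edge of that group with its longest coding transcript and 2.48 times with its shortest.

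BIRC2 (cIAP1), an inhibitor of death receptor signalling, was at 19.7 FPKM in control_IgG against 29.4 in control_AGO, and 38.8 in miR143_IgG against 2.25 in miR143_AGO. Its AGO pair log2 ratio of −3.22 was far below that of any BCL2 family member, and 0.847% of rows were as low. BIRC2 is named because it passed 10-fold in other comparisons. With 1 average per group its difference was not tested. BIRC5 (survivin), the highest gene of the inhibitor list, was at 59.8 to 90.2 FPKM. The TRAIL receptor TNFRSF10A was at 28.8 FPKM in miR143_IgG and at 2.44 or less elsewhere, whereas TNFRSF10B was at 15.8 to 49.2 FPKM and the TNF receptor TNFRSF1A at 13.2 to 19.4 FPKM.

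The likeness of patterns over the 4 groups was measured as the Euclidean distance of centred log2(FPKM + 1) values, with 4 points per gene. It was taken among 37 genes of the same lists, a number that includes the member itself. BCL2L1 and BBC3 were nearest to each other, at a distance of 0.39. The nearest gene to MCL1 was BNIP3L at 0.40, to BID BIRC5 at 0.58 and to BAX RIPK1 at 0.89. BCL2L11 was nearest to CASP2 at 0.90 and BAK1 to BCL2L11 at 1.11.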

How the data were processed

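AGO2 and IgG precipitates of K562 cells with a miR-143 or a control vector were sequenced. The authors deposited 4 tables of 1 average FPKM per row and group, made with TopHat and Cufflinks. The submitters' processing notes name hg38 as the build; program versions and the annotation are not given in the sources used here. The labels describe ribosomal RNA removal with random-primed amplification, whereas the methods name a TruSeq RNA kit, so that poly(A) selection is uncertain. Depth is unknown. FPKM is relative to the library, and how far MIR143 lowered the other values was not tested.

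Ratios were log2 of (FPKM + 1) over (FPKM + 1), which understates the change of low genes, over rows with 1 FPKM or more in at least 1 compared group. Medians, counts past 2-fold and 10-fold, and ranks among all rows describe the members. The design foresaw this form for averages, without tests. The low edge was the 10th lowest product of FPKM and transcript length above 0 over rows whose gene has 1 transcript. Seed matches were read from GENCODE 29 (GRCh38) 3′ UTRs; rows were matched by symbol, 36207 of 59642 with 1 name. Of the tables' rows, 46293 were at 0 in all groups.

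The members and lists were chosen with earlier results of these data known. Named genes were all members, genes of the other lists past 10-fold in any comparison or among the 2 highest of a list, and the nearest gene by pattern. Some genes that this rule names are not reported here. BAK1P1 and the overlapping genes were added after their values had been seen. Alternatives were pseudocounts of 0.1 and 0.01, 3 scalings, other filters, summed rows, and other UTRs or match classes. Scripts (Python 3.11.15, numpy 2.4.6, pandas 2.3.3) were tested on simulated data.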

Additional observations from a re-analysis of the deposited data

Results flagged for a closer look

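BAX lay on opposite sides of zero in the cell populations. Its log2 ratio of AGO over IgG was −2.53 with the control vector and 1.02 with pLV-miR-143, with 117 and 12.4 FPKM in the mock precipitates and 19.5 and 26.2 FPKM in the AGO precipitates. With 1 average per group the difference was not tested. Over the alternatives run the ratio went from −2.59 to −1.90 with the control vector and from 1.02 to 1.495 with pLV-miR-143. A pseudocount or a filter cannot change its sign, and the scalings reuse the same group averages.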

How the results depend on the processing

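No paired analysis was possible because each deposited column holds 1 average per group, and for the same reason no replicate could be left out. Of 200 member values under other pseudocounts and scalings, 179 stayed on the same side of 2-fold and within 1.5 times, 21 did not, and none that passed 2-fold changed sign. Filters and summed rows leave a ratio as it is and are not counted. Ratios of small size did change sign under a scaling, for BCL2L1 and BBC3 (AGO over IgG, control cells), BCL2L1 and MCL1 (AGO over IgG, miR-143 cells) and BCL2L11 (AGO pair). Scaling raised the median of all rows by 0.40 to 0.65 (AGO over IgG, control cells) and 0.28 to 0.49 (miR-143 cells). In the AGO pair the count of members past 2-fold went from 0 to 1 with each scaling, namely MCL1 at −1.03 (median) and PMAIP1 at 1.02 (upper quartile) and 1.00 (coding sum). With a pseudocount of 0.1, BCL2L11 had 4.42 in AGO over IgG of control cells. Members with a miR-143-3p match went from 4 to 1 with the shortest 3′ UTR and to 1 with 8mers only. The share of the 6848 genes likewise went from 24.6% to 10.4% and to 5.17%.

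Counts of rows past 10-fold were 101 (AGO pair), 902 (IgG pair), 928 and 561 (AGO over IgG, control and miR-143 cells) and 1232 (IgG-corrected). In the same order they were 1034, 3640, 3645, 2552 and 4290 with a pseudocount of 0.1, 1158, 3749, 3775, 2769 and 5119 with 0.01, and 3116, 6409, 7017, 6393 and 7442 at 2-fold. With a mean of at least 5 FPKM the IgG-corrected count was 796. The share of 10-fold rows that were higher in AGO over IgG went from 46.8% to 61.1% to 68.6% with scaling in control cells and from 30.3% to 41.0% to 50.2% in miR-143 cells, and from 27.7% to 55.2% in the AGO pair with a pseudocount of 0.1.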

Other observations

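Summed by role, the 3 guardians were at 37.6 FPKM in control_IgG against 54.0 in control_AGO, and 51.7 in miR143_IgG against 45.3 in miR143_AGO. The 2 effectors summed to 121, 74.8, 19.4 and 65.7 FPKM in the same order, and the 5 BH3-only genes to 161, 90.0, 144 and 126 FPKM. The guardians thus made up 11.8%, 24.7%, 24.1% and 19.1% of the 10 members. The lowest guardian share, in control_IgG, goes with the high BAX and BID values of that group, and sums of FPKM follow their few highest genes.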
